A study of Mus musculus with 39 samples.

Results

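The regions described here are enhancers that were listed as active in the Oct4+ population of nEnd and carried no listed H3K4me1 in either endoderm-marker population. Of 5456 H3K4me1 consensus regions of Oct4+ cells outside promoters, 3380 overlapped an Oct4+ H3K27ac consensus region. Of these, 1547 overlapped no H3K4me1 peak of any DP or Pdgfra+ library and were the members, and the other 1833, with an H3K4me1 peak in at least 1 of those 6 libraries, are called retained regions. A consensus region was a merged interval with a peak in 2 or more of the 3 libraries of a mark and population, and promoters reached from 1 kb before a TSS to 100 bp past it. The members were thus chosen by H3K4me1 in all 9 libraries and by H3K27ac in the 3 Oct4+ libraries, and those values are given as a description.

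The data were CUT&Tag peak lists, a method that tethers a transposase to an antibody and so cuts and tags the DNA beside a histone mark. nEnd (naive extra-embryonic endoderm) is a mouse culture of primitive endoderm identity, here expanded from primitive endoderm made from an embryonic stem cell line with an OCT4-mCherry reporter, in medium with Activin A, CHIR99021 and LIF on feeder cells. By FACS for the reporter and for PDGFRA, cells were separated into Oct4+ (reporter-positive), DP (positive for both) and Pdgfra+ (PDGFRA-positive), with 3 libraries for each of 4 marks, and no library carried a treatment of its own. All populations came from the same reporter line, so 1 genotype stands behind every value, and the p-values measure the spread between libraries. The study describes its replicates as biological, and the labels do not say from which cultures or sorts they came.

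Enhancers are DNA elements that raise transcription of a gene from a distance. H3K4me1 marks enhancers that are active or primed, H3K27ac marks the active ones, H3K27me3 is laid down by Polycomb repressive complex 2 and H3K9me3 marks heterochromatin. In pluripotent cells, OCT4 and SOX2 bind jointly to many enhancers, with ESRRB and KLF factors at some of the same elements, whereas GATA6, GATA4 and SOX17 drive primitive endoderm.

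Sequences are given for 3 members at pluripotency genes, chosen because they hold a motif match and so not typical of the others. They were the only ones among the members nearest to 9 genes of the naive pluripotency list with an OCT-SOX, octamer or ESRRB match in the 300 bp around the H3K4me1 maximum. Each is the plus strand of GRCm38, and capitals mark the match: the ESRRB motif TCAAGGTCA read on the opposite strand in the Pou5f1 and Klf5 members, and the octamer ATGCAAAT in the Klf2 member.
Pou5f1 member, chr17:35544683-35544982: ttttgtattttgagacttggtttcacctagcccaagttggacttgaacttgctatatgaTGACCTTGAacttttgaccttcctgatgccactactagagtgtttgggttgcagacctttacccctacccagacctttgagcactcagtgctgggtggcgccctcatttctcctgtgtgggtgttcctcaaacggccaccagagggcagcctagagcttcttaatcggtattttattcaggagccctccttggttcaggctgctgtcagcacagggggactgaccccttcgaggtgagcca
Klf2 member, chr8:72311048-72311347: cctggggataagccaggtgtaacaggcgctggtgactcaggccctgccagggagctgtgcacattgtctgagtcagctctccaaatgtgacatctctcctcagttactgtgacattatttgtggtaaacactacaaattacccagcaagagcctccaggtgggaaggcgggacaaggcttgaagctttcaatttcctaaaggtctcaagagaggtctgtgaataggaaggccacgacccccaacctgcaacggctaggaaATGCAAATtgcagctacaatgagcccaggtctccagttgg
Klf5 member, chr14:99325608-99325907: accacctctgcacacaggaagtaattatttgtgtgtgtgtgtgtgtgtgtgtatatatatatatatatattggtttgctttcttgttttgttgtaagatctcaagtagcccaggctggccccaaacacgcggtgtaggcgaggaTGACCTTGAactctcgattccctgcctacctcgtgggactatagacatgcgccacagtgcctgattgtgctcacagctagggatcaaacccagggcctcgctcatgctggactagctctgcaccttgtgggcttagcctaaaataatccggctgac
All 3 windows are intergenic. A match is a description of the letters, not evidence of binding, and both ESRRB matches lay in soft-masked repeat sequence whereas the octamer did not.

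Of the 25 naive pluripotency genes fixed as markers, the promoter had H3K27ac in more Oct4+ than Pdgfra+ libraries at 15, in fewer at 1 (Sall4) and in equally many at 9. Of those 9 genes, 7 had no promoter H3K27ac peak in any of the 9 libraries. Each gene's promoter was taken at 1 TSS, so a peak at another start site of the gene was not counted. Of the 25 endoderm genes, the promoter had H3K27ac in more Pdgfra+ than Oct4+ libraries at 14, in fewer at 4 and in equally many at 7. Of those 7 genes, 4 had no such peak in any library. H3K27ac was listed at the Pou5f1 promoter in 3 of 3 Oct4+, 1 DP and 1 Pdgfra+ libraries and at the Sox2 promoter in 3, 0 and 0. At the Pdgfra promoter it was listed in 0, 2 and 3 and at the Gata4 promoter in 0, 2 and 2, but at the promoter of Gata6, an endoderm factor, in 2 of 3 Oct4+ libraries also.

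The peak lists differed in length, and this bears on what "unmarked" means. H3K4me1 lists held 4127, 16057 and 7443 peaks in the Oct4+ libraries, 4371, 11874 and 11334 in DP and 1723, 1074 and 10620 in Pdgfra+. The share of the 3380 active regions with an H3K4me1 peak was 21.9%, 47.7% and 43.3% in the DP libraries and 8.17%, 4.91% and 30.7% in the Pdgfra+ libraries. Read depth was not given, so a mark below the calling threshold of a library is not seen. With the same number of peaks taken from every library of a mark, 149 regions met the rule, and without Oct4+ replicate 1, 2 or 3 the number was 555, 278 or 740. With an Oct4+ replicate left out, an Oct4+ consensus region needed a peak in both remaining libraries, which is a stricter rule. Without a DP or Pdgfra+ replicate the number was 1548 to 1768.

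Most retained regions had H3K4me1 in a DP library. They divided into 779 with H3K4me1 in DP libraries only, 1009 with H3K4me1 in both DP and Pdgfra+, and 45 with H3K4me1 in Pdgfra+ libraries only. The members were 45.8% of the active regions, and a further 383 regions (11.3%) lay just outside the rule with a peak in exactly 1 of the 6 libraries. The median width was 3453 bp in members (quartiles 2770 and 4640), 3863 bp in those 383 regions and 4450 bp in all retained regions.

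Within Oct4+, the members were listed in many libraries but were not the regions of highest signal. H3K4me1 was listed at 766, 1531 and 1346 members in replicates 1, 2 and 3, and 549 members (35.5%) had a peak in all 3. Where listed, their median total signal stood at the 51.7, 68.9 and 51.4 percentile of all H3K4me1 peaks of the respective library, against 64.6, 82.4 and 67.7 in retained regions. H3K27ac was listed at 97.0%, 97.2% and 40.4% of members and at 96.8%, 98.6% and 51.6% of retained regions, with replicate 3, the shortest Oct4+ H3K27ac list, the lowest in both. The regions with 1 endoderm library fell between the 2 groups for H3K4me1, at 56.8, 74.5 and 55.6.

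Members lay further from genes than retained regions did. The median distance from a member to the nearest protein-coding TSS was 30.4 kb (quartiles 11.9 and 80.8), against 18.1 kb for retained regions. At the H3K4me1 maximum, 803 members (51.9%) were intronic, 680 (44%) intergenic and 64 (4.14%) exonic, whereas 62.8% of retained regions were intronic and 33.4% intergenic. Of the members, 307 (19.8%) were over 100 kb from any protein-coding TSS, compared with 9.22% of retained regions. The 879 DP active regions with no Oct4+ H3K4me1 peak lay between the 2 groups. Their median distance was 25.9 kb, 39.7% were intergenic and 12.2% were over 100 kb away.

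Most members had no other member within 12 kb. Stitched at that distance, the members formed 1420 units, of which 1307 were single regions, 99 were pairs and 14 held 3 members, and no unit was larger. Retained regions were not stitched, so this describes the members alone. The 5 triplets of widest span were 2 in Msi2, which encodes an RNA-binding protein (chr11:88531125-88562900 and chr11:88644082-88672059), and 1 each nearest to Gadd45a (chr6:67104607-67131765), Inhbb (chr1:119387507-119412559), which encodes an activin and inhibin subunit, and Tmem17 (chr11:22584154-22608954). None of these 5 triplets held a retained region within its span. More members in introns of Msi2 lay outside its 2 triplets. They were at chr11:88582118-88586665, chr11:88611264-88614987, chr11:88617156-88631610, chr11:88685340-88691404 and chr11:88693232-88698263. Elsewhere, 243 members (15.7%) lay within 20 kb of a retained region and 623 (40.3%) within 20 kb of a DP H3K4me1 peak. The median distance to the nearest H3K4me1 peak of any DP or Pdgfra+ library was 27.3 kb, and 60 members lay within 1 kb of one.

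H3K27ac was seldom listed at members in DP or Pdgfra+ cells. The rule did not use H3K27ac of those populations, but it required that their H3K4me1 be absent. The low shares are therefore not independent of the rule. In DP, 80, 10 and 93 of the 1547 members had a peak (5.17%, 0.646% and 6.01%, mean 3.94 ± 2.89%, SD, n = 3). In Pdgfra+, 30, 23 and 23 members did (1.94%, 1.49% and 1.49%, mean 1.64 ± 0.261%). DP replicate 2, which lists 3079 H3K27ac peaks against 10957 and 12244 in the other DP libraries, lay below every Pdgfra+ library, so the groups overlapped. The difference of 2.31 percentage points was not larger than this spread (exact two-sided permutation test, 3 against 3 libraries, p = 0.40, adjusted p = 0.40 over the 8 tests), and this design cannot give a p below 0.10.

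At retained regions the same libraries listed H3K27ac far more often. The shares were 50.6%, 18.6% and 47.8% in DP and 26.2%, 26.6% and 26.9% in Pdgfra+. Members were lower than retained regions in 6 of 6 libraries, by 30.0 points on average (SD 11). Fewer regions of both kinds were found in DP replicate 2, but the order held there also (0.646% against 18.6%). The exact two-sided sign-flip permutation test gave p = 0.0312, the smallest that 6 libraries allow, and the adjusted p of 0.0625 did not pass the threshold of 0.05. Retained regions were also wider (median 4450 against 3453 bp). In windows of 1 kb at the H3K4me1 maximum of both kinds of region the difference was -25.2 points. Members and retained regions were split by H3K4me1 of DP and Pdgfra+ cells. This contrast is therefore not independent of the rule and is a description. In sorted populations, fewer cells with a mark and less of the mark per cell cannot be told apart.

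Counted over libraries, 130 members (8.40%) had an H3K27ac peak in at least 1 DP library, against 36.5% of all Oct4 active regions. In Pdgfra+, 47 members (3.04%) had one in at least 1 library, against 22.0% of all Oct4 active regions. In total 139 members had H3K27ac in at least 1 of the 6 libraries and 3 had it in all 6. These 3 lay close to a promoter: 3.36 kb from the TSS of Tnrc18, 2.17 kb into Anp32b, which encodes a histone chaperone, and 1.28 kb into Elk4, which encodes an ETS factor that acts with SRF. A further 6 members had it in 5 libraries, and the highest signal percentiles among them were those of 2 members in introns of Rfx2, a transcription factor of cilia genes, at 6.93 and 15.2 kb from its TSS, each with H3K27ac in 2 of 3 DP and 3 of 3 Pdgfra+ libraries. In DP replicate 3 (88699) and the Pdgfra+ libraries (82250, 35872 and 51132) the total signal was identical at both. There the same peak reached both members, so their listings are not separate.

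**Figure D1:**
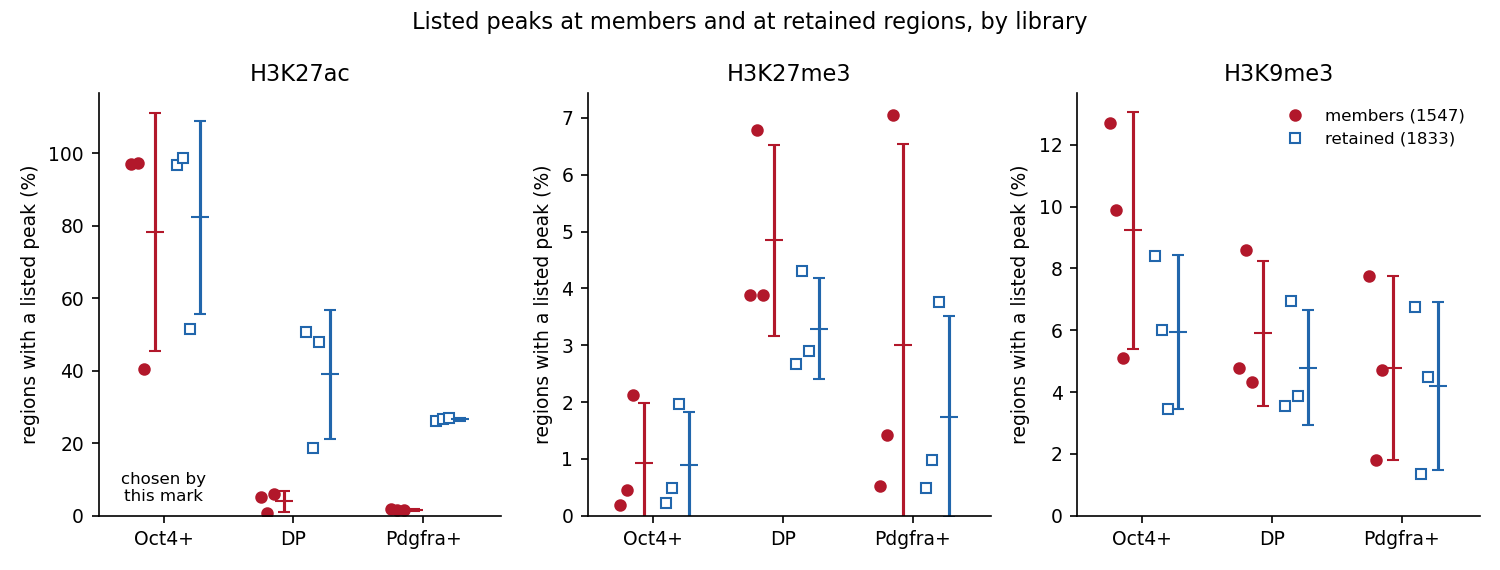
Percentage of members (filled circles) and retained regions (open squares) with a listed peak of H3K27ac, H3K27me3 or H3K9me3, by population, with 1 point per library and mean and SD beside the points (bars are cut at 0). H3K27ac in DP and Pdgfra+ sits between 0.646% and 6.01% at members and between 18.6% and 50.6% at retained regions, whereas the H3K27me3 and H3K9me3 points of members and retained regions lie close together.

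H3K27me3 was rare at members in all populations. It was listed at 3, 7 and 33 members in Oct4+ (mean 0.927 ± 1.05%), at 60, 105 and 60 in DP (4.85 ± 1.68%) and at 8, 22 and 109 in Pdgfra+ (3 ± 3.54%). The H3K27me3 lists held 1629, 2948 and 5785 peaks in Oct4+, 3798, 8672 and 6418 in DP and 1143, 2841 and 6151 in Pdgfra+. Within each population the longest list had the most members with a peak. Each DP library was above each Oct4+ library, but the Pdgfra+ libraries spread over the whole range. The 3 populations did not differ beyond this spread (one-way F statistic by exact permutation over 9 libraries, p = 0.186, adjusted p = 0.297). In at least 1 library, H3K27me3 was found at 33 members (2.13%) in Oct4+, 117 (7.56%) in DP and 111 (7.18%) in Pdgfra+. The corresponding shares of all Oct4 active regions were 2.04%, 6.01% and 5.33%.

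Within libraries, H3K27me3 was listed at members more often than at retained regions in 7 of 9 libraries, by 0.947 points on average (SD 1.20). The adjusted p was 0.0625 (exact sign-flip permutation test, p = 0.0234), and it passed the threshold with promoters taken from 2 kb upstream to 500 bp downstream (1.13 points, adjusted p = 0.0208). As for H3K27ac, the 2 sets were split by H3K4me1, so this contrast is not independent of the rule and is a description. The difference was largest in Pdgfra+ replicate 3 (7.05% against 3.76%) and in DP replicate 2 (6.79% against 4.31%), the only libraries with over 100 such members.

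H3K27me3 reached 6 of 6 DP and Pdgfra+ libraries at 4 of the 5 members ranked highest for it. Members in introns of Kcnj10 (an inward-rectifier potassium channel; chr1:172349135-172352468) and Adcyap1r1 (the PACAP receptor; chr6:55462632-55467536), one 1.74 kb upstream of Arc (a synaptic immediate-early gene; chr15:74674305-74680916) and one in Xirp1 (an actin-binding muscle protein; chr9:120019442-120022572) made up the 4. A member in Plekhg6 (chr6:125371912-125375544) carried it in 5. The Kcnj10 member was also listed for H3K27me3 in 3 of 3 Oct4+ libraries, the Adcyap1r1 and Xirp1 members in 1 of 3, and the Arc and Plekhg6 members in none. None of these 5 had H3K9me3 in any library, and the Xirp1 member alone among them had H3K27ac outside Oct4+, in 1 Pdgfra+ library.

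H3K9me3 was listed at more members in Oct4+ libraries, although not beyond the spread. The counts were 196, 153 and 79 members in Oct4+ (9.22 ± 3.83%), 74, 133 and 67 in DP (5.90 ± 2.34%) and 120, 28 and 73 in Pdgfra+ (4.76 ± 2.97%), with overlapping groups (exact permutation test, p = 0.268, adjusted p = 0.357). The H3K9me3 lists held 29871, 22912 and 14160 peaks in Oct4+, 13676, 26981 and 12701 in DP and 29970, 5322 and 13110 in Pdgfra+. Within each population the longest list had the most members with a peak. In at least 1 library, 235 members (15.2%) had H3K9me3 in Oct4+, 157 (10.1%) in DP and 143 (9.24%) in Pdgfra+. Among all Oct4 active regions these shares were 12.3%, 8.93% and 8.37%.

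Compared with retained regions in the same library, members carried H3K9me3 more often in 9 of 9 libraries, by 1.65 points on average (SD 1.47; exact sign-flip permutation test, p = 0.00391, the smallest possible, adjusted p = 0.0286). Members and retained regions were split by H3K4me1 of DP and Pdgfra+ cells, and all 9 libraries score the same 2 sets of regions. This contrast is therefore, as for H3K27ac, not independent of the rule and is a description. The difference was 3.28 ± 1.40 points in Oct4+, 1.12 ± 0.614 in DP and 0.561 ± 0.386 in Pdgfra+. By the same exact test it fell to 0.665 without Oct4+ replicate 2 (adjusted p = 0.0833) and to 0.627 without Oct4+ replicate 3 (adjusted p = 0.250). By the same exact permutation test the adjusted p was also above the threshold without any 1 of the DP replicates or of Pdgfra+ replicates 2 and 3 (0.0571 to 0.0833), with a consensus from all 3 libraries (0.389 points, adjusted p = 0.286) and with the 50% of peaks of highest signal (0.265 points, adjusted p = 0.400). With equal numbers of peaks per library, its sign turned (-0.216). The 123 members with H3K9me3 in 2 or more Oct4+ libraries held a median of 33.1% soft-masked repeat bases, against 21.6% in the 1312 members with none, and the part of repeats in this difference was not tested.

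The promoters nearest to members were examined next. For 580 members a protein-coding TSS lay within 20 kb, which gave 543 genes. In Oct4+ libraries, 59.9%, 70.5% and 29.1% of these promoters had H3K27ac, compared with 35.3%, 44.3% and 17% of all 21911 protein-coding promoters. In DP the shares were 44.8%, 15.5% and 48.6% against 33.2%, 10.7% and 34.9%. In Pdgfra+ they were 21.0%, 31.3% and 25% against 15.9%, 22.7% and 18.5%. The nearest promoters were thus above the average gene in each of the 9 libraries, by 20.9 ± 7.74 points in Oct4+, 10 ± 4.70 in DP and 6.76 ± 1.78 in Pdgfra+. The DP and Pdgfra+ values overlapped (exact permutation test, 3 against 3 libraries, p = 0.40, adjusted p = 0.40), and the Oct4+ values are a description, since the members were chosen by Oct4+ H3K27ac.

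For H3K27me3 the order of the populations was the opposite. The promoters nearest to members had H3K27me3 less often than all promoters in the Oct4+ libraries (1.84%, 4.79% and 9.21% against 4.58%, 8.74% and 15.8%). In DP the shares were within 1.28 points of those of all promoters (11.8%, 19.0% and 14.0% against 12.1%, 17.7% and 13.7%) and in Pdgfra+ they were higher (2.95%, 6.63% and 16.4% against 2.09%, 4.92% and 13.3%). The difference from all genes was -4.43 ± 1.97 points in Oct4+, 0.401 ± 0.818 in DP and 1.89 ± 1.14 in Pdgfra+, with DP and Pdgfra+ values that overlapped and Oct4+ values below both. Over the 9 libraries the one-way F statistic gave an exact permutation p of 0.00714 and an adjusted p of 0.0286. The members were chosen by active marks in Oct4+ and by their lack in the other populations, so the Oct4+ side of this contrast is not independent of the rule and is a description, as for H3K27ac. The adjusted p rose above the threshold when any 1 of 7 libraries was left out, that is Oct4+ replicates 2 or 3, any DP replicate, or Pdgfra+ replicates 2 or 3 (0.0571 to 0.229). The Pdgfra+ minus Oct4+ difference of 6.32 points rose to 12.7 without Oct4+ replicate 2, which left 278 members.

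**Figure D2:**
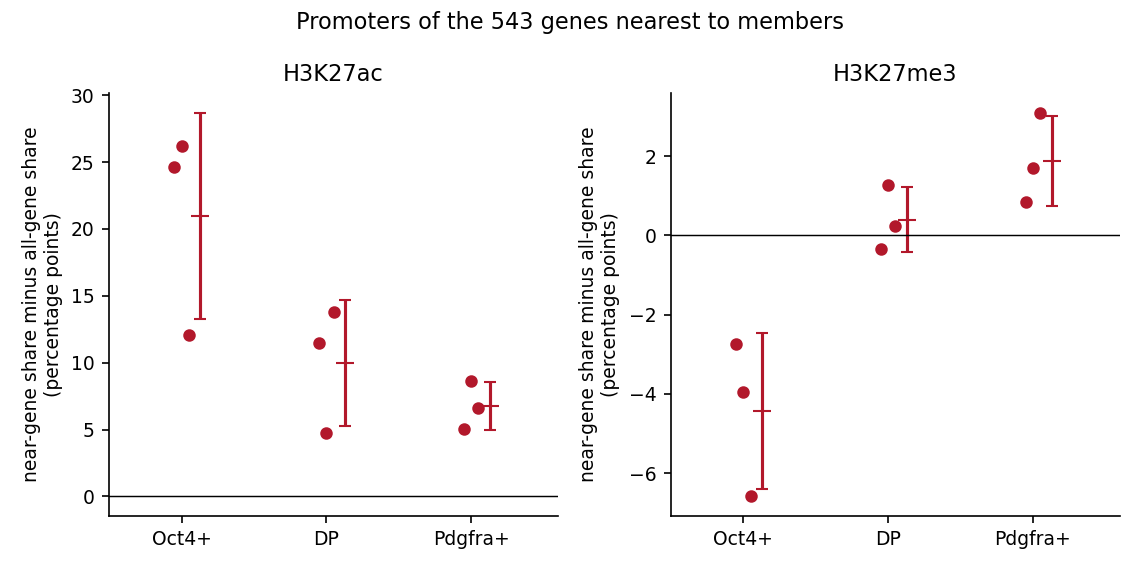
Share of the promoters nearest to members with a listed peak minus the share of all promoters, in percentage points, for H3K27ac and H3K27me3 by population, with 1 point per library and mean and SD beside the points. All 9 H3K27ac points are above 0, and the 3 Oct4+ H3K27me3 points are below 0 and below every DP and Pdgfra+ point.

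Genes of the naive pluripotency list often had a member nearby. Within 20 kb of the TSS, 6 of the 25 genes (24.0%) had a member: Nanog, Klf2, Tdgf1, Fgf4, Sall4 and Tfap2c. Of all 21911 protein-coding genes, 770 had one (3.51%). Retained regions lay within 20 kb of 7 of the 25 genes, among them Pou5f1, Dppa3, Tet1 and Tet2, and Nanog and Sall4 had both kinds. Within 50 kb, 9 of the 25 genes had a member, now with Pou5f1, Klf5 and Prdm14, against 8.11% of all genes. Distances were taken to 1 TSS per gene. Esrrb had no member within 50 kb, but several with Esrrb as nearest gene lay 71.7 to 154.9 kb downstream of its TSS. The count within 20 kb was 2, 2 and 5 of 25 without Oct4+ replicate 1, 2 and 3, which left 555, 278 and 740 members.

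The other lists had fewer within 20 kb, and some genes stand on 2 lists. A member lay within 20 kb of 2 of 15 formative and primed genes (Foxd3 and Lef1), 2 of 15 trophectoderm genes (Tfap2c and Bmp4), 2 of 15 Wnt genes (Ctnnb1 and Lef1), 2 of 15 FGF and ERK genes (Fgf4 and Spred2) and 2 of 15 Nodal genes (Nodal and Tdgf1). Of the 15 LIF and JAK-STAT genes 0 had a member, beside 3.51% of all genes, and 4 (Il6st, Socs3, Pim3 and Cish) had a retained region, beside 5.66% of all genes. Within 50 kb, where 8.11% of all genes had one, a member lay near 5 of 15 formative and primed genes (33.3%, beside 36% of the naive pluripotency list), 4 of 15 FGF and ERK genes and 2 of 15 LIF and JAK-STAT genes. Of the 25 endoderm genes, only Sox17 had a member within 20 kb, and it had none when any 1 of the Oct4+ replicates was left out. The mirror set of 879 DP active regions with no Oct4+ H3K4me1 peak lay within 20 kb of 10 of the same 25 endoderm genes and of 2 pluripotency genes, beside 2.30% of all genes.

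**Figure D3:**
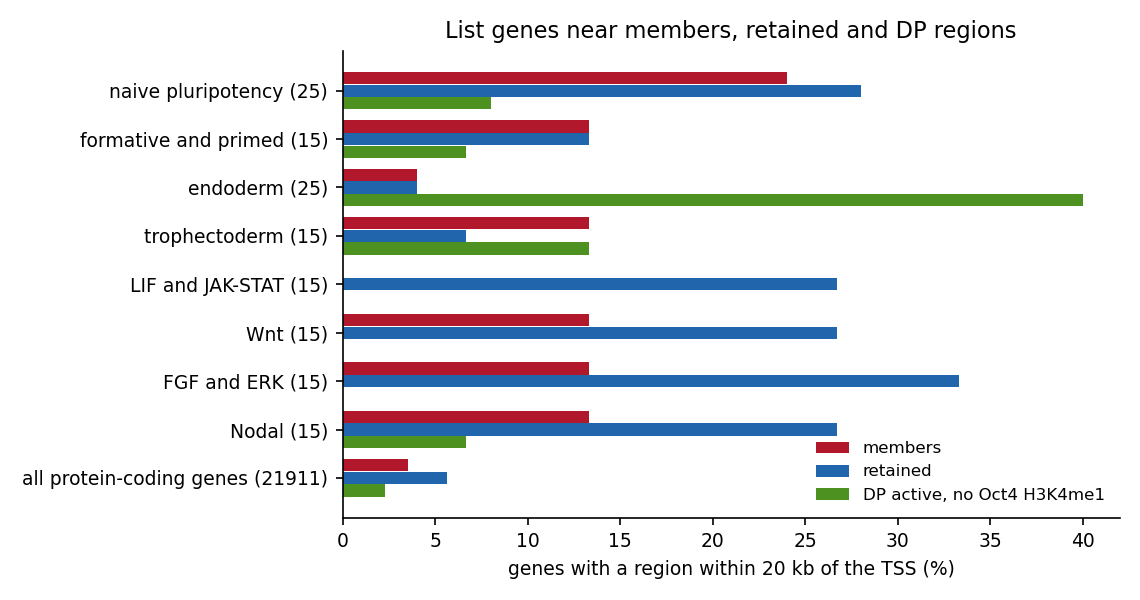
Percentage of the genes of each list with a member, a retained region or a DP active region without Oct4+ H3K4me1 within 20 kb of the TSS, with the number of annotated genes in brackets. Members reach 24.0% of the naive pluripotency genes and 4% of the endoderm genes, while the DP regions reach 8% and 40%.

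The member 2.77 kb downstream of the start of Nanog, a core pluripotency factor, lies in its intron (chr6:122710257-122714227), with H3K4me1 total signals of 7699 and 10972 in Oct4+ replicates 1 and 2 and no peak in replicate 3. It overlapped the Oct4+ H3K27ac consensus region, but only the peak of replicate 1 (total signal 66965) reached into the member itself. No H3K27me3 or H3K9me3 peak and no peak of DP or Pdgfra+ cells was listed there. The Nanog promoter had H3K27ac in 3 of 3 Oct4+ libraries and in none of the 6 others.

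Pou5f1, which encodes OCT4, had its nearest member 36 kb downstream of the TSS (chr17:35542038-35550508). H3K4me1 was listed there in 3 of 3 Oct4+ libraries, with total signals of 5665, 33474 and 7809, and H3K27ac in 2 of 3 (12634 and 12494). The Klf2 member, 5.33 kb upstream (chr8:72310318-72313704), had H3K27ac in 3 of 3 Oct4+ libraries, with signals of 35182, 135420 and 10038. KLF2 is a factor of naive pluripotency, and 4 members in all lay within 50 kb of its gene. Klf5 had a member 23.6 kb downstream (chr14:99322250-99328396) with 3 of 3 Oct4+ H3K27ac peaks, and 1 H3K27ac peak in DP replicate 1 (19706).

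The next 3 pluripotency members carried no further mark. At Tdgf1, which encodes the Nodal co-receptor Cripto, the member lay 12.8 kb upstream in an intron of Lrrc2 (chr9:110958945-110962424). It was listed in 3 of 3 Oct4+ libraries for both active marks, with H3K27ac signals of 11449, 15637 and 9651, and in no other library. The Sall4 member (chr2:168777904-168781628, 9.96 kb upstream) had 2 Oct4+ libraries for each active mark, and the Tfap2c member (chr2:172566989-172570914, 17.4 kb downstream) had 3 for H3K4me1 and 2 for H3K27ac. Both had no peak elsewhere. The Tfap2c promoter was listed for H3K27me3 in 2 Oct4+, 3 DP and 2 Pdgfra+ libraries and for H3K27ac in none.

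The Prdm14 and Fgf4 members carried repressive marks in some libraries. Prdm14 encodes a regulator of naive pluripotency and germ cells, and its member, 40.1 kb downstream (chr1:13076061-13087045), was among the 10 members of highest Oct4+ H3K4me1, with signals of 12682, 77225 and 32448. H3K9me3 was listed there in 1 library of each population. The Prdm14 promoter had H3K27ac in 2 Oct4+ libraries and H3K27me3 in 3 of 3 DP libraries. Fgf4 encodes the FGF ligand that drives primitive endoderm formation. At its member, 15.9 kb downstream (chr7:144863275-144869228), H3K27me3 was absent from all Oct4+ lists and present in 3 of 3 DP libraries, with signals of 137035, 94646 and 49306, and in Pdgfra+ replicate 3 (91343).

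The member at Sox17 went the other way. SOX17 is a transcription factor of endoderm, and the region, 3.49 kb downstream of its TSS (chr1:4491182-4493867), overlaps an exon. H3K27ac was listed in Oct4+ replicates 1 and 2 with signals of 7960 and 9021. In DP replicates 1 and 3 the signals were 30228 and 32571, and in Pdgfra+ they were 44254, 14595 and 37730. H3K27me3 was listed in 3 of 3 Oct4+ libraries (18075, 28632 and 183975) and in no DP or Pdgfra+ library. It was the only one of the 24 list members with H3K27ac in more than 1 DP or Pdgfra+ library. Signals were not scaled to depth, so they can be compared between libraries only as listed or not listed.

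Lef1, Socs3 and Fgfr1 were the further list genes whose member had H3K27me3. The Lef1 member (chr3:131101067-131104119), 6.35 kb upstream of this Wnt effector gene, had it in Oct4+ replicates 2 and 3 and in DP replicates 1 and 2. The Socs3 member, 33.5 kb downstream of this inhibitor of LIF signaling, had it in DP replicates 2 and 3, and the Fgfr1 member, in an intron of the FGF receptor gene, in DP replicate 2. H3K9me3 was listed at 6 of the 24. The Dnmt3b member (chr2:153599867-153602185), 47.3 kb upstream of this de novo DNA methyltransferase gene, had it in 3 of 3 Oct4+ libraries and in no other. At the Ctnnb1 member (chr9:120918304-120921707), 7.51 kb upstream of the beta-catenin gene, it was listed in 1 of 3 Oct4+ libraries and in all 6 DP and Pdgfra+ libraries.

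**Figure D4:**
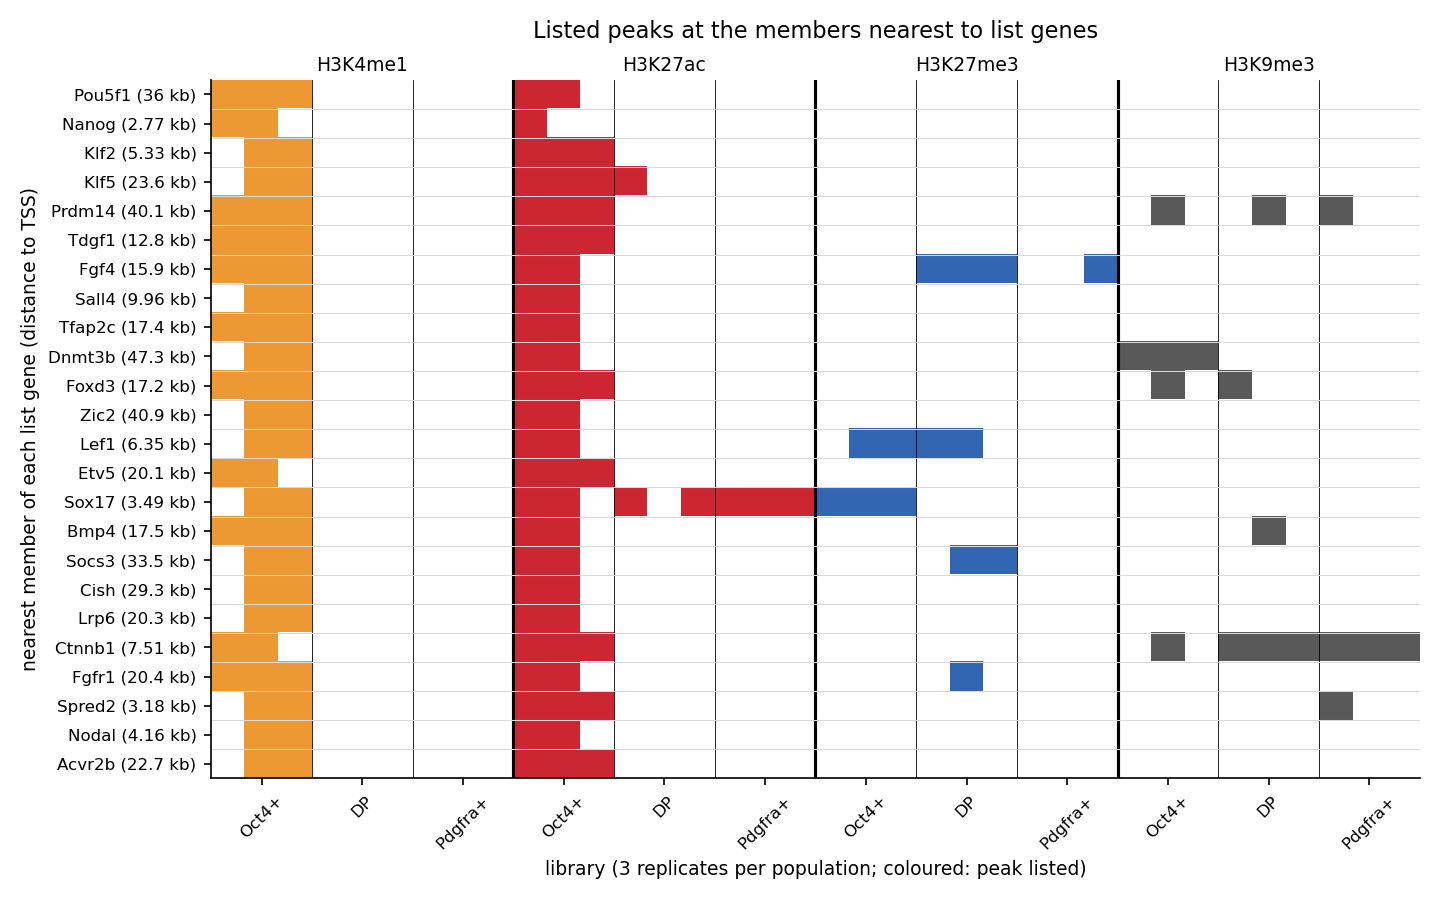
Listed peaks of 4 marks in 36 libraries (columns, 3 replicates per population in order 1 to 3) at the 24 members nearest to list genes (rows, with the distance from region to TSS). H3K4me1 is empty in DP and Pdgfra+ by the rule, H3K27ac outside Oct4+ appears at Sox17 and in 1 library at Klf5, and H3K27me3 appears at Fgf4, Lef1, Sox17, Socs3 and Fgfr1.

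Of the 10 members of highest Oct4+ H3K4me1, only the Prdm14 member lay near a gene of the lists. The highest lay 16.3 kb upstream of Fbrsl1 (chr5:110464840-110474558), with H3K4me1 signals of 22344, 55136 and 32352, and the second 6.15 kb upstream of Klf15 (chr6:90449635-90456429), with 18566, 49337 and 31768. Others were nearest to Vwf, Rps27rt, Dio3, Prdm14, Gadd45a, Cd74 and Ctdspl. All 10 had H3K4me1 in 3 of 3 Oct4+ libraries, and no H3K27ac peak in DP or Pdgfra+ was listed at any of them. The Klf15 member had H3K27me3 in 2 DP and 3 Pdgfra+ libraries, and the Vwf member, at the gene of von Willebrand factor, in 2 and 1.

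The sequence of the members was then compared in 1 kb windows around the H3K4me1 maximum. The joint OCT4-SOX2 motif TTGTNATGC (both strands) was found in 6.33% of member windows, 3.55% of retained windows, 1.82% of the DP active windows without Oct4+ H3K4me1, and 3.09% of all 12733 windows of H3K4me1 regions outside promoters. For the octamer ATGCAAAT the shares were 7.37%, 5.46%, 3.07% and 6.02%, and for the ESRRB motif TCAAGGTCA 7.76%, 7.04%, 2.84% and 4.99%. The GATA motif AGATAAG had the reverse order, with 10.1% in members, 14.3% in retained regions, 36.1% in the DP regions and 22.0% overall. Without Oct4+ replicate 2 the member and retained shares were 8.63% and 11.2%, a difference of -2.57 points in place of -4.20. Some octamer matches can be part of an OCT-SOX match, and members and retained regions are themselves part of the last set.

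The OCT-SOX share of members did not stand above that of retained regions in every choice of libraries. Without Oct4+ replicate 2 the shares were 5.04% in 278 members and 5.07% in retained regions, whereas without Oct4+ replicate 1 they were 7.75% and 4.30% and without replicate 3 5.41% and 3.52%. These runs also took the stricter consensus of both remaining Oct4+ libraries. In 400 bp windows the shares were 3.81% and 1.58%. Of the 101 OCT-SOX matches in members 37 (36.6%) lay in soft-masked repeats, and of the 66 in retained regions 18 (27.3%). For ESRRB, 61.3% and 60% of matches lay in repeats.

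The KLF motif GGGNGTGG was found in 42.2% of member windows, against 51.2% of retained windows, 36.4% of DP windows and 44.2% of all windows. Without Oct4+ replicate 2, however, the members stood higher than the retained regions (48.9% and 48.1%). Members had a lower GC content than retained regions, with medians of 48% and 49.4%. The compressed OCT-SOX form TTGTATGC, the spacing preferred by OCT4 with SOX17, was found in 2.97% of member windows and 2.02% of retained windows. It was found in 2.73% of DP windows and 2.64% of all windows. The remaining motifs were close to the overall shares: STAT (TTCCNGGAA) 4.33% of member windows and 4.26% of all windows, FOXA (TGTTTAC) 14.2% and 15.2%, TFAP2 (GCCNNNGGC) 28.9% and 29.4%, AP-1 (TGANTCA) 29.0% and 29.1%, TCF (CTTTGAA) 22.0% and 20.9%, and OTX (GGATTA) 33.7% and 31.7%. Regions are not replicates, so these shares carry no test, and nothing about binding of a factor follows from them.

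**Figure D5:**
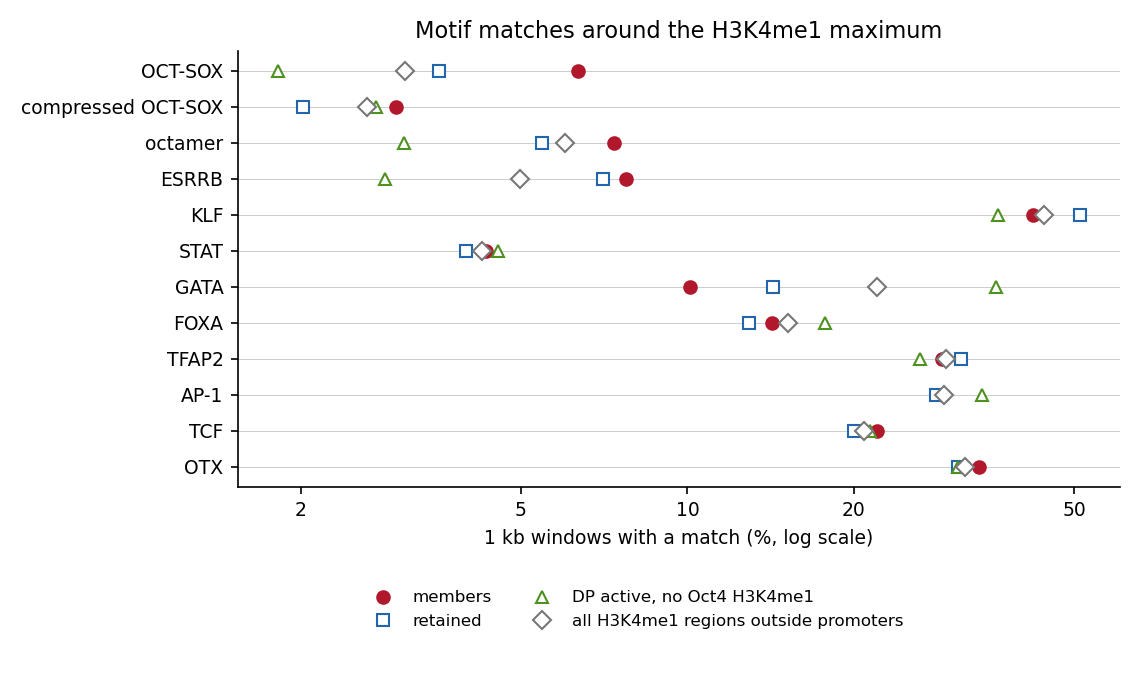
Percentage of 1 kb windows around the H3K4me1 maximum with at least 1 match to each motif (log axis), in members, retained regions, DP active regions without Oct4+ H3K4me1 and all H3K4me1 regions outside promoters. OCT-SOX runs from 1.82% in the DP regions to 6.33% in members, and GATA from 10.1% in members to 36.1% in the DP regions.

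Members were found on chromosomes 1 to 19 and X. Chromosome 2 held the most (144, 9.31%) and chromosome X 3. Chromosome 13 had 3.94% of members and 2.51% of retained regions, chromosome 1 had 7.95% and 5.46%, and chromosome 18 had 2.52% and 3.98%.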

How the data were processed

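Peak lists of 36 CUT&Tag libraries were used; 3 IgG samples were not used here. Per the submitters' processing notes the authors worked on mm10 with bcl2fastq 2.19.1, Bowtie2, SAMtools 1.12, deepTools, bedtools 2.26.0 and SEACR, and per the paper they called stringent peaks per library against IgG. The deposited total and maximum signal columns are coverage, whole numbers not scaled to depth. Reads per library were not given, so depth is unknown and list length stands in its place.

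Overlaps were counted at 1 bp or more in Python 3.11.15 (NumPy 2.4.6, pandas 2.3.3, SciPy 1.17.1, Matplotlib 3.10.9), checked on simulated data, with GENCODE vM21 basic TSS and the GRCm38 sequence. The library was the unit of each test, and 8 exact permutation tests, two-sided (F tests by construction), were adjusted by Benjamini-Hochberg at 0.05. The members and lists were chosen with earlier results of these data known. Named regions were the member nearest to each list gene (within 50 kb), the 10 of highest mean Oct4+ H3K4me1 percentile, the 5 with H3K27ac and the 5 with H3K27me3 in most DP and Pdgfra+ libraries, the 5 largest clusters, and sequences of up to 6 pluripotency members with a match. One region that this rule names is not reported here. Alternatives covered consensus minimum, list length, signal, overlap, window, promoter, distance, the replicate block and left-out replicates; motifs and lists in other member sets were added after seeing the data.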

Additional observations from a re-analysis of the deposited data

Results flagged for a closer look

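The difference in H3K9me3 between members and retained regions was not alike in the 3 populations. It was 3.28 points in Oct4+, 1.12 in DP and 0.561 in Pdgfra+, and an exact permutation test of this difference over 9 libraries gave p = 0.0107, outside the 8 adjusted tests and chosen after seeing the data. Oct4+ replicate 3 (1.67) had the same difference as DP replicate 2 (1.67), and the other DP and Pdgfra+ libraries were lower. The 2 sets of regions were split by the rule, so these values are a description.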

How the results depend on the processing

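The number of members depended most on the processing: 244 with peaks in all 3 libraries, 5377 with at least 1, 149 with equal numbers of peaks, 756 with the 50% of peaks of highest signal, and 278 to 1768 with a replicate left out (Oct4+ replicate 1 or 3 gave 555 and 740). Without an Oct4+ replicate, a consensus needed both remaining Oct4+ libraries, so those runs also made the rule stricter. The H3K27ac difference between members and retained regions, which is not independent of the rule, ranged from -34.7 to -27.0 with a replicate left out. The H3K9me3 difference, likewise not independent of the rule, was 0.389 with all 3 libraries, 0.265 with the highest 50% and -0.216 with equal numbers. With a replicate left out it was 0.627 to 2.14. Its adjusted p then stayed under the threshold without Oct4+ replicate 1 or Pdgfra+ replicate 1 only. Such runs have fewer libraries, which raises the smallest p the sign-flip test can give. The H3K27me3 difference, not independent of the rule either, passed the threshold with wider promoters (1.13), and ranged from 0.716 to 2.62 with a replicate left out. For promoters nearest to members, the H3K27ac contrast turned to -0.883 with equal numbers (1.24 to 5.51 with a replicate left out). Their H3K27me3 contrast, a description on its Oct4+ side, had an adjusted p above the threshold at 11.4 (all 3 libraries), 4.46 (at least 1), 2.99 (equal numbers), 4.49 (highest 50%) and 4.81 (50 kb), and ranged from 5.53 to 12.7 with a replicate left out. Added after seeing the data, the OCT-SOX and KLF differences between members and retained windows turned to -0.0300 and 0.800 without Oct4+ replicate 2 (ranges -0.0300 to 3.45 and -9 to 0.800 with a replicate left out). The H3K27ac and both population contrasts of H3K27me3 and H3K9me3 at members did not change side: 1.38 to 5.34, 2.91 to 5.46 and 2.98 to 5.95 with a replicate left out. The GATA difference was -2.57 without Oct4+ replicate 2. From 20 to 50 kb, genes with a member rose from 2 to 5 on the formative and primed list, from 2 to 4 on FGF and ERK and from 0 to 2 on LIF and JAK-STAT. The cause of these changes was not tested.

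Replicate numbers gave no clear sign of pairing: correlations of same-numbered libraries were over 0.1 in 2, 1, 1 and 0 of 9 pairs for H3K4me1, H3K27ac, H3K27me3 and H3K9me3. Low correlations do not tell whether same-numbered libraries shared a culture or sort. Under the replicate block, the promoter H3K27me3 contrast stayed at 6.32 (exact permutation, p = 0.0278, adjusted p = 0.0625). That p is the smallest the block allows for 3 populations. Neither this contrast nor those of H3K27me3 and H3K9me3 at members passed the threshold. The pairwise H3K27ac contrasts, 2.31 and 3.25, could not pass it, because the block allows too few arrangements of 2 populations. For them the block decides nothing.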
